A study of Saccharomyces cerevisiae with 2 samples.

Results

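The proteasome is the particle that degrades ubiquitin-tagged proteins. Its 20S core holds the peptidase sites inside stacked α and β rings, and its 19S cap recognises, unfolds and feeds in the substrate through a base that carries ATPases and a lid that carries a deubiquitinase. In budding yeast the genes of the particle are activated together by Rpn4p, a short-lived transcription factor that the proteasome itself degrades and that binds a promoter sequence known as the proteasome-associated control element (PACE). The 34 genes described here are the 14 genes of 20S subunits, the 19 genes of 19S subunits and *RPN4*. They were chosen by name, though with earlier results of these data known. The split into rings, base and lid was made after their values were seen. All 34 were found among the 5775 nuclear ORFs and 9633 transcripts of the table.

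RNA-seq libraries were made from 2 strains of the BY4741 background, each grown in YPD as an exponential asynchronous culture. *xrn1*∆ *trf4*∆ lacks Xrn1p, the cytoplasmic 5′–3′ exoribonuclease, and also Trf4p, which adds short poly(A) tails to nuclear RNAs as part of TRAMP, and *trf4*∆ lacks Trf4p only, so the loss of Trf4p is common to both strains and the comparison is that of Xrn1p loss on this background. With 1 culture per strain no difference has a replicate check, and no p-value is given. Values are read densities, that is normalized reads per nucleotide of the gene, and the log2 of the density in *xrn1*∆ *trf4*∆ over that in *trf4*∆, with exact (Clopper-Pearson) 95% intervals that cover counting error only. In bulk RNA, a change in some of the cells and a smaller change in every cell cannot be told apart.

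Recovered reads were summed over the 5738 of 5770 nuclear ORFs whose densities gave whole reads in both libraries. These ORFs held 12121664 reads in *xrn1*∆ *trf4*∆ and 7455598 in *trf4*∆. The proteasome genes, all among them, had 503 to 13563 reads in *xrn1*∆ *trf4*∆ and 213 to 3908 in *trf4*∆. The deleted genes matched the labels. *TRF4* had 1 read in *xrn1*∆ *trf4*∆ and 0 in *trf4*∆, and *XRN1* had 111 reads in *xrn1*∆ *trf4*∆ and 7272 in *trf4*∆. *LEU2*, *MET17* and *URA3*, which BY4741 lacks, were listed at 0 in both libraries, whereas *HIS3*, of which the strain is known to keep a part, had 1050 reads in *xrn1*∆ *trf4*∆ and 353 in *trf4*∆. Every 50-nt sequence of the 34 genes is found once, by exact match, in the R64 genome, and no other gene of the RefSeq annotation overlaps them. Overlap with the unstable transcripts of the table, whose coordinates were not used here, was not tested.

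Promoter sequences were read first, from the R64 genome of RefSeq, since all 34 ORFs were matched there by their systematic names. The 300 bases before each start codon were searched on both strands for the 9-base PACE, GGTGGCAAA. It was found before 27 of the 34 genes, against 72 of 5770 nuclear ORFs (1.25%). The other 6 subunit genes hold a PACE with 1 substitution, with positions counted from 1 at the 5′ end of the element. In *RPN10*, *RPN13* and *SEM1* it is A7G, which gives GGTGGCGAA, present before 0.451% of ORFs. In *PRE5*, *PUP1* and *RPN8* it is G1A, which gives AGTGGCAAA, present before 0.884% of ORFs. Each of the 33 subunit genes thus has 1 of these 3 forms, a feature that 116 other ORFs share and that 2.58% of all ORFs show. Since both substituted forms were picked from these genes, the wider search for a PACE with at most 1 mismatch is the fairer background, and it matched 454 of 5770 ORFs (7.87%). A match of letters is a description and not a measured binding site.

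The sites below are shown because they belong to the genes with the highest and lowest ratios and to the genes with a substituted element. They are read along the strand that carries the element, and capitals mark its 9 bases.
RPN9 (chrIV:1322086-1322115, plus strand): gctttcatccGGTGGCAAAagtaagaacaa
PRE7 (chrII:141150-141179, plus strand): aaactcaaagGGTGGCAAAaacaagcggta
RPN3 (chrV:196842-196871, minus strand): ctctttcttgGGTGGCAAAtgtttttcgtc
RPN2 (chrIX:220800-220829, minus strand): atttattttcGGTGGCAAAactggatacat
RPT1 (chrXI:174047-174076, minus strand): ttagttttcgGGTGGCAAAattcggtaatc
RPN1 (chrVIII:164837-164866, minus strand): tgtgttttacGGTGGCAAAaggcgagcacg
RPN10 (chrVIII:498967-498996, minus strand): tgtaaattccGGTGGCGAAaacccgcctgg
RPN13 (chrXII:965655-965684, minus strand): ttattcgcgaGGTGGCGAAagctttgctac
SEM1 (chrIV:1202007-1202036, plus strand): tagtgctatgGGTGGCGAAcgtggtgggcg
PRE5 (chrXIII:901552-901581, plus strand): cctattatagAGTGGCAAAattaaaaattc
PUP1 (chrXV:631890-631919, minus strand): aacccggccgAGTGGCAAAataccaaaaag
RPN8 (chrXV:817084-817113, minus strand): gggatacctcAGTGGCAAAtcgttactcaa

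The element began 84 to 183 bases before the start codon, with a median of 120, and lay on the strand of the gene in 24 of the 33 genes. *RPN4* has no PACE in this window, and its closest 9 bases differ from it at 3 positions. Its promoter instead holds letters bound by its own activators. Within the 600 bases before its start codon stand 2 copies of TCCGTGGA, an element of the multidrug resistance factors Pdr1p and Pdr3p, 442 and 399 bases away and on opposite strands, and 1 copy of TTAGTAA, the element of the oxidative stress factor Yap1p, 374 bases away on the other strand. The heat-shock element bound by Hsf1p, searched as the units TTC, GAA and TTC with NN between them, was found 348 and 21 bases before the start codon. Over the same length, 1.28%, 13.7% and 1.66% of nuclear ORFs hold a match to these letters on either strand, in the same order, and of 5770 ORFs *RPN4* is the 1 that holds all 3. These letters were chosen after the region had been looked at. The stretch that carries the 3 elements lies 450 to 331 bases before the start codon, and capitals mark the elements.
RPN4 (chrIV:417039-417158, minus strand): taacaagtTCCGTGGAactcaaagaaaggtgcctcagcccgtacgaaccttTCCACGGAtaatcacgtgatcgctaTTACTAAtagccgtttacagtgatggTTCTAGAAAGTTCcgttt

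*RPN4* (YDL020C, chrIV:415113-416708 of R64, a gene with a single exon) had the highest log2 ratio of the 34 genes. Its density was 1.57 in *xrn1*∆ *trf4*∆ and 0.41 in *trf4*∆, from 3995 reads in *xrn1*∆ *trf4*∆ and 655 in *trf4*∆. This is a 3.82-fold higher density, or a log2 ratio of 1.93 (95% interval 1.81 to 2.05). The ratio lay at the 92.3rd percentile of the 5638 nuclear ORFs detected in both libraries, 1.15 above their median of 0.78. In *trf4*∆ the activator had the lowest density of the 34 genes, at the 64.5th percentile of ORFs. In *xrn1*∆ *trf4*∆ its density was above the subunit median, at the 84.7th percentile.

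No subunit gene had a log2 ratio as high as that of *RPN4*, the highest being 1.42. Relative to ORFs of similar density, a comparison set out below, *PRE7* stood higher than *RPN4*, at 1.45 against 1.36, and the rest lower. In *xrn1*∆ *trf4*∆, 30 of the 33 subunit genes were denser in reads on the authors' scale, beside 82% of all nuclear ORFs (4624 of 5638). The direction depended on the scale, since 9 of 33 (42.4% of ORFs) were higher after scaling each library on its median ORF, 12 of 33 (50.04%) after a trimmed mean and 30 of 33 (79.4%) after equal sums, with shifts of -0.94, -0.78 and -0.08. The ORF median is therefore used as the yardstick in what follows. Their median log2 ratio was 0.57, with quartiles of 0.32 and 0.95, against 0.78 for all ORFs, and 21 of 33 lay below that median. At least 2-fold higher were 6 of 33 subunit genes (40.1% of ORFs) and at least 2-fold lower 0 of 33 (2.63% of ORFs). The interval of the gene lay wholly above 0 for 29 of 33 (75.5% of ORFs with more than 3 reads in both libraries) and wholly below 0 for 2 (13.2%). It lay wholly above the ORF median for 12 of 33 (39.1%) and wholly below it for 19 (40.5%). Subunit genes 2-fold higher were fewer than among ORFs at large, and those below the ORF median more, as a description of these 2 libraries. These genes are abundant, and abundant ORFs had lower ratios. Relative to ORFs of similar density, a comparison set out below, 21 of 33 lay above the median, with a median difference of 0.25.

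**Figure D1:**
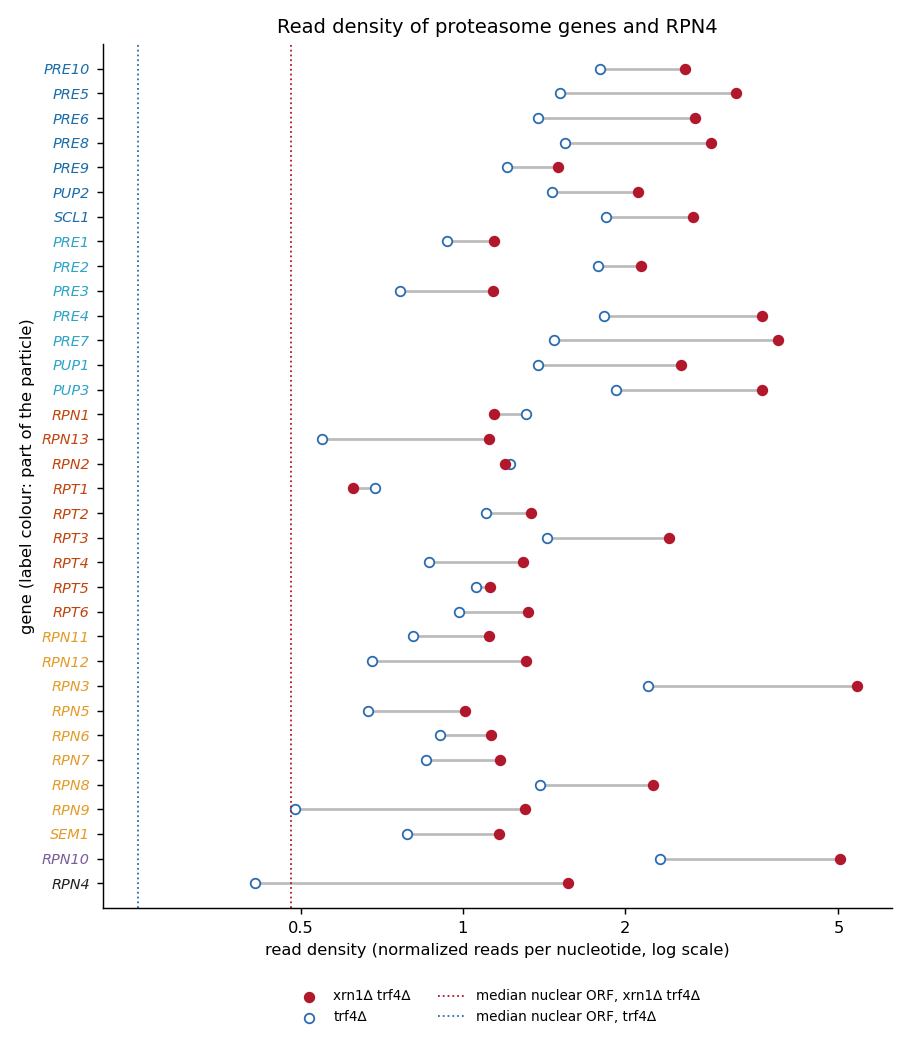
Read density of the 34 genes in normalized reads per nucleotide (log axis), with *xrn1*∆ *trf4*∆ as filled and *trf4*∆ as open circles, 1 library each, and dotted lines at the median nuclear ORF (0.48 in *xrn1*∆ *trf4*∆ and 0.249 in *trf4*∆). All 34 genes lay above the median ORF of their library, and *RPN4* at the bottom shows the widest step between strains.

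The level of the subunit genes was high in both strains. Their median density was 1.34 in *xrn1*∆ *trf4*∆ and 1.23 in *trf4*∆, where the median nuclear ORF had 0.48 in *xrn1*∆ *trf4*∆ and 0.249 in *trf4*∆. The subunits are present in equal copies within the particle, but their transcripts were not equal. The densities spread 8.63-fold in *xrn1*∆ *trf4*∆, between 0.626 for *RPT1* and 5.40 for *RPN3*, and 4.77-fold in *trf4*∆, between 0.487 for *RPN9* and 2.32 for *RPN10*. The coefficient of variation over the 33 genes was 58.1% in *xrn1*∆ *trf4*∆ and 38.9% in *trf4*∆. The order of the genes was similar in both libraries, with a Spearman rho of 0.86 over 33 genes, which share their libraries and their normalization, against 0.90 over 5633 nuclear ORFs. Within the parts it was lower, 0.66 over the 14 genes of the 20S core and 0.65 over the 19 genes of the 19S cap. Together the subunit genes took 0.896% of the reads recovered from 5738 nuclear ORFs in *xrn1*∆ *trf4*∆ (interval 0.891 to 0.901) and 0.583% in *trf4*∆ (0.578 to 0.589). These intervals cover counting error in 1 library each. A share of ORF reads is tied to a scale on total ORF reads, and the subunit median changed sign under the median-ORF and trimmed-mean scalings.

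The α ring of the 20S core forms the gated entry to the particle. Its 7 genes had densities of 1.51 to 3.22 in *xrn1*∆ *trf4*∆ and 1.21 to 1.85 in *trf4*∆, the narrowest spread among the parts of the particle, 2.14-fold in *xrn1*∆ *trf4*∆ and 1.53-fold in *trf4*∆. Their median log2 ratio was 0.54, and 3 of 7 lay above the ORF median. *PRE5* (YMR314W) was highest, with a density of 3.22 in *xrn1*∆ *trf4*∆ and 1.52 in *trf4*∆ and a log2 ratio of 1.08 (0.98 to 1.18). *PRE6* (YOL038W) and *PRE8* (YML092C) had log2 ratios of 0.97 and 0.91. *SCL1* (YGL011C), *PUP2* (YGR253C) and *PRE10* (YOR362C) stood close together at 0.54, 0.53 and 0.53, and their intervals overlap. *PRE9* (YGR135W), the 20S subunit that yeast can live without, was lowest, with a density of 1.51 in *xrn1*∆ *trf4*∆ and 1.21 in *trf4*∆ and a log2 ratio of 0.31 (0.20 to 0.43).

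The β ring carries the peptidase sites. Its 7 genes had a median log2 ratio of 0.89, and 4 of 7 lay above the ORF median. The 3 catalytic subunits stood in the lower part of the ring or near its median. *PRE2* (YPR103W), the chymotrypsin-like subunit, had a density of 2.14 in *xrn1*∆ *trf4*∆ and 1.78 in *trf4*∆ and, at 0.26 (0.17 to 0.35), the lowest log2 ratio of the 20S genes. *PRE3* (YJL001W), the caspase-like subunit, had 1.14 in *xrn1*∆ *trf4*∆ and 0.766 in *trf4*∆ and a log2 ratio of 0.57 (0.43 to 0.71). *PUP1* (YOR157C), the trypsin-like subunit, had 2.55 in *xrn1*∆ *trf4*∆ and 1.38 in *trf4*∆ and a log2 ratio of 0.89 (0.79 to 0.99). *PRE3* is the 1 gene of the 34 with an intron. Its densities gave whole reads with the full length of 764 bases, intron included, of which 648 are coding, so that its density is understated relative to the other genes while its ratio is not affected by the length.

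The β subunits without a peptidase site spread more widely. *PRE7* (YBL041W, chrII:141247-141972) had the highest ratio of the 20S core, with a density of 3.86 in *xrn1*∆ *trf4*∆ and 1.48 in *trf4*∆, a log2 ratio of 1.39 (1.29 to 1.48). *PRE4* (YFR050C) had a log2 ratio of 0.98 and *PUP3* (YER094C) one of 0.91, with similar densities of 3.61 each in *xrn1*∆ *trf4*∆ and of 1.83 and 1.93 in *trf4*∆. *PRE1* (YER012W) was at 0.29 (0.15 to 0.44). All 14 genes of the 20S core were higher in *xrn1*∆ *trf4*∆ on the authors' scale (82% of ORFs), with intervals above 0 (75.5% of ORFs), and 7 of them lay above the ORF median and 7 below it.

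**Figure D2:**
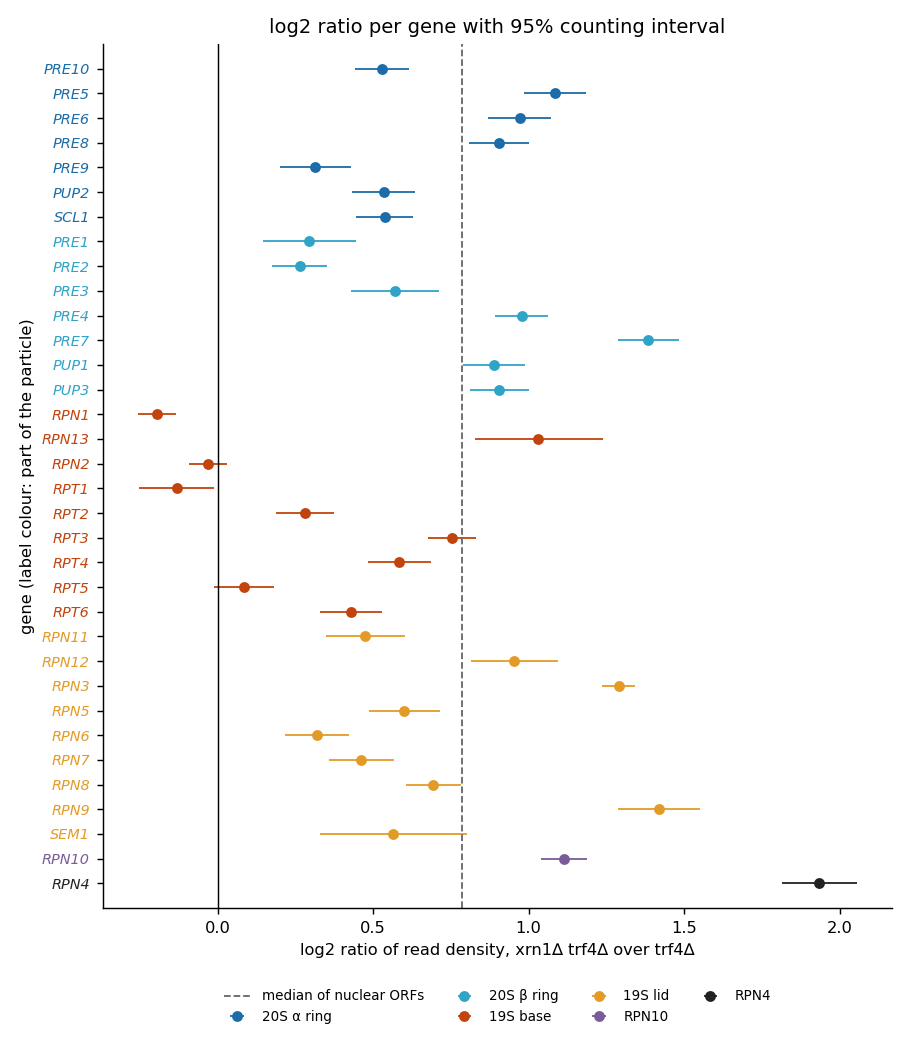
log2 ratio of *xrn1*∆ *trf4*∆ to *trf4*∆ read density for the 34 genes, with exact 95% counting intervals as bars, a solid line at 0 and a dashed line at the ORF median of 0.78. The 3 genes to the left of 0, a line that depends on the scale, all belong to the 19S base, and *RPN4* lies apart on the right at 1.93.

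The base of the 19S cap had the lowest ratios of the particle. It comprises the ATPases *RPT1* to *RPT6*, the scaffolds *RPN1* and *RPN2* and the ubiquitin receptor *RPN13*. The median log2 ratio of these 9 genes was 0.28, and 8 of 9 lay below the ORF median. Against nuclear ORFs of similar density, a comparison set out below, 4 lay above the median and 5 below it. *RPN1* (YHR027C, chrVIII:161730-164711), which docks ubiquitin and the shuttle factors, had a density of 1.14 in *xrn1*∆ *trf4*∆ and 1.31 in *trf4*∆, a log2 ratio of -0.20 (-0.25 to -0.14). *RPT1* (YKL145W, chrXI:174213-175616) had 0.626 in *xrn1*∆ *trf4*∆ and 0.686 in *trf4*∆, a log2 ratio of -0.13 (-0.25 to -0.01). *RPN2* (YIL075C, chrIX:217863-220700), the scaffold that holds *RPN13*, had 1.20 in *xrn1*∆ *trf4*∆ and 1.23 in *trf4*∆ and a log2 ratio of -0.03 (-0.09 to 0.03), whose interval holds 0. These 3 genes were the ones of the 33 with a lower density in *xrn1*∆ *trf4*∆ on the authors' scale.

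The ATPases, which form a ring and unfold the substrate, differed among themselves. Their densities lay between 0.626 and 2.42 in *xrn1*∆ *trf4*∆ and between 0.686 and 1.44 in *trf4*∆. *RPT3* (YDR394W) had the highest ratio of the ring, 0.75 (0.68 to 0.83), and *RPT4* (YOR259C) followed at 0.58, *RPT6* (YGL048C) at 0.43 and *RPT2* (YDL007W) at 0.28. *RPT5* (YOR117W) had a log2 ratio of 0.08 (-0.01 to 0.18), whose interval holds 0. None of the 6 ATPase genes lay above the ORF median, though the interval of *RPT3* holds it. Relative to nuclear ORFs of similar density, a comparison set out below, 3 of them lay above the median and 3 below it. *RPN13* (YLR421C) stood apart from the rest of the base, with a density of 1.12 in *xrn1*∆ *trf4*∆ and 0.548 in *trf4*∆ and a log2 ratio of 1.03 (0.83 to 1.24).

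The lid showed the widest contrast in level. *RPN3* (YER021W, chrV:196948-198519), a scaffold subunit, had a density of 5.40 in *xrn1*∆ *trf4*∆ and 2.21 in *trf4*∆, a log2 ratio of 1.29 (1.24 to 1.34). *RPN9* (YDR427W, chrIV:1322205-1323386) had the lowest subunit density of *trf4*∆. It had 1.30 in *xrn1*∆ *trf4*∆ and 0.487 in *trf4*∆, from 2460 reads in *xrn1*∆ *trf4*∆ and 576 in *trf4*∆, and with 1.42 (1.29 to 1.55) the highest log2 ratio of the subunits. *RPN12* (YFR052W) also lay above the ORF median, at 0.95. *RPN11* (YFR004W), the deubiquitinase of the lid, had 1.12 in *xrn1*∆ *trf4*∆ and 0.807 in *trf4*∆ and a log2 ratio of 0.47 (0.35 to 0.60), while its partner *RPN8* (YOR261C) had 2.26 in *xrn1*∆ *trf4*∆ and 1.39 in *trf4*∆ and a log2 ratio of 0.69 (0.61 to 0.78). The lid scaffolds *RPN5* (YDL147W), *RPN7* (YPR108W) and *RPN6* (YDL097C) had 0.60, 0.46 and 0.32. *SEM1* (YDR363W-A), the smallest subunit, had 0.56 with a wide interval (0.33 to 0.80), since it rests on 503 reads in *xrn1*∆ *trf4*∆ and 213 in *trf4*∆. The median of the 9 lid genes was 0.60.

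*RPN10* (YHR200W), a ubiquitin receptor that sits between base and lid, had a density of 5.03 in *xrn1*∆ *trf4*∆ and 2.32 in *trf4*∆, the highest of the 34 genes in *trf4*∆ and next to *RPN3* in *xrn1*∆ *trf4*∆. Its log2 ratio was 1.11 (1.04 to 1.19). The ubiquitin receptors of the cap thus fell on both sides of the ORF median, with *RPN10* and *RPN13* above it and *RPN1* below it. Over the whole cap the median log2 ratio was 0.56 for 19 genes, against 0.73 for the 14 genes of the core, and the ranges of -0.20 to 1.42 and 0.26 to 1.39 overlap.

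The ratio of nuclear ORFs varied with their level, and the proteasome genes belong to the abundant ones. Nuclear ORFs were ranked by their mean log2 density and cut into 10 groups. Group medians of the log2 ratio were 0.84 at the bottom and 1.15 next to it, so the fall with level was not steady. They were 0.57 in the eighth, 0.33 in the ninth and -0.07 at the top, and these last 3 groups hold 9, 14 and 9 of the subunit genes. Relative to the median of its own group, the log2 ratio was higher for 21 of 33 subunit genes. The core and the cap then stood further apart, with 11 of 14 genes of the 20S core above their group and a median difference of 0.60, and 10 of 19 genes of the 19S cap with a median difference of 0.03. These differences depend on where the groups were cut. *PRE10* and *PUP2* both had a log2 ratio of 0.53, but *PRE10*, in the top group, was 0.60 above its group and *PUP2*, in the ninth, 0.20. The top group is wide and reaches a mean density of 171, whereas no subunit gene exceeded 5.40 in either library. How much of the gap between core and cap rests on this cut was not tested. *PRE7*, *RPN3*, *RPN10* and *PRE5* were 1.45, 1.36, 1.18 and 1.15 above their group, and *RPN4* 1.36. *RPT1* was 0.90 and *RPN1* 0.53 below it, as differences of -0.90 and -0.53.

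**Figure D3:**
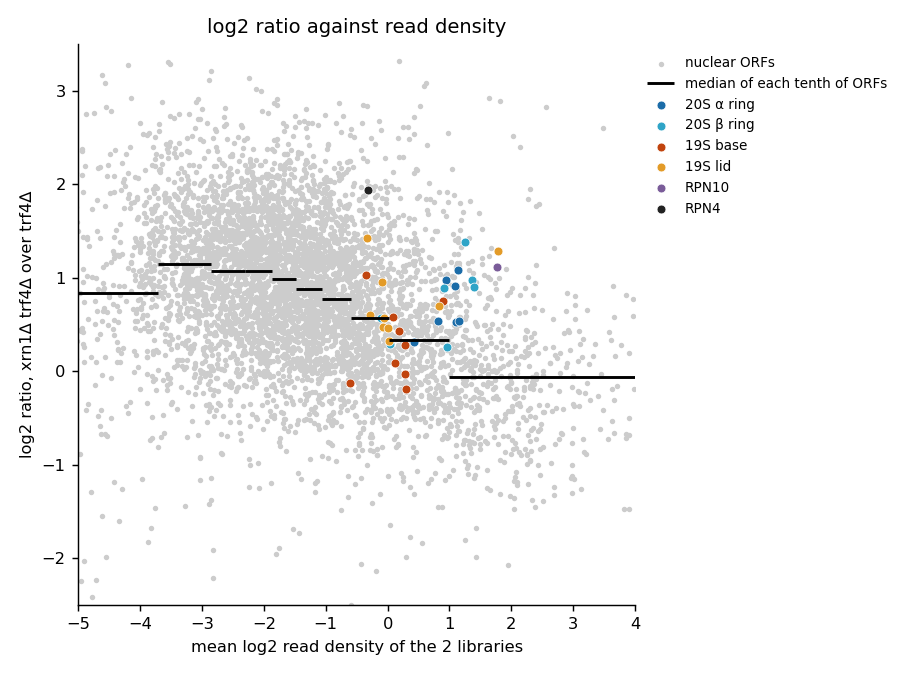
log2 ratio of *xrn1*∆ *trf4*∆ to *trf4*∆ against the mean log2 read density of both libraries, for nuclear ORFs (grey) and the 34 genes (coloured by part of the particle), with black bars at the median of each of 10 groups of ORFs by density. The axes leave out 317 of 5638 ORFs, none of the 34 genes among them, and show the 20S genes mostly above the bar of their density group.

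The length of the gene was related to the ratio among the subunits. Spearman's rho between log2 ratio and gene length was -0.42 over the 33 subunit genes and -0.15 over 5633 nuclear ORFs, as a description over genes of the same libraries. The 19 subunit genes shorter than 1000 bases had a median log2 ratio of 0.89, against 0.92 for 2166 nuclear ORFs of that length. The 14 longer ones, all of the 19S cap, had 0.45, against 0.72 for 3467 ORFs. *RPN1* and *RPN2*, the longest genes of the particle with 2982 and 2838 bases, were among the 3 with a ratio below 0, but *RPN3* with 1572 bases was among the highest. The 5 genes of the cap shorter than 1000 bases had a median of 0.95 (0.47 to 1.11). The 20S genes, all of which are that short, had 0.73 (0.26 to 1.39), and the ranges overlap. Relative to their density groups, *RPN10*, *RPN13*, *RPN12*, *SEM1* and *RPN11* were at 1.18, 0.46, 0.38, -0.005 and -0.096. The middle value, 0.38, lay below the median of 0.60 for the 20S genes on that measure. Which part was lower among short genes thus depended on the yardstick.

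The form of the promoter element was set beside the ratio. The 27 subunit genes with the consensus PACE had a median log2 ratio of 0.53, and 8 of them lay above the ORF median. The 3 genes with G1A had ratios of 0.69 to 1.08 and the 3 with A7G ratios of 0.56 to 1.11, and in each set 2 of 3 lay above the ORF median. These ranges lie within that of the consensus genes, -0.20 to 1.42. Outside the particle, the 45 nuclear ORFs with a consensus PACE had a median of 0.51, also below that of all ORFs. Neither set was compared here with ORFs of similar density, and a relation of the element to the ratio was not tested.

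**Figure D4:**
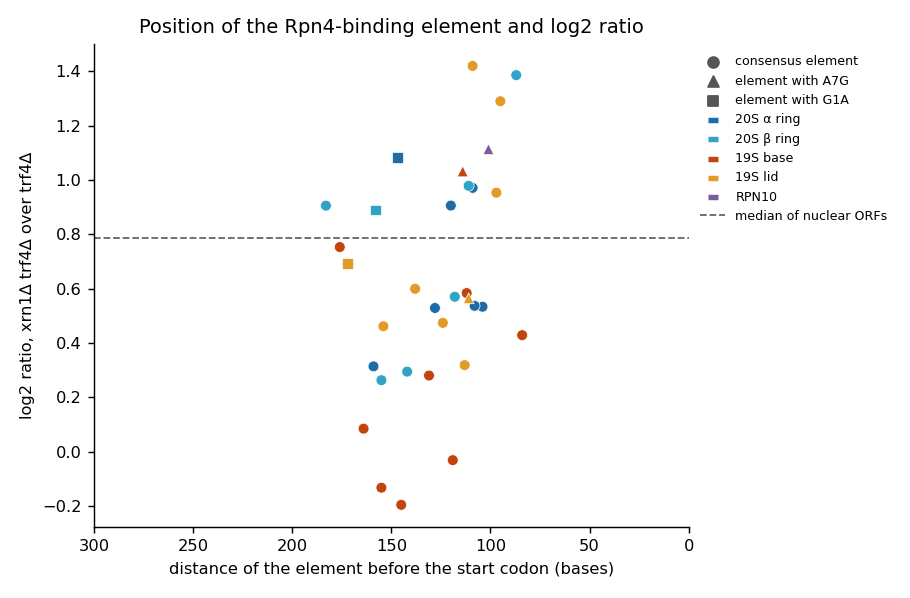
log2 ratio of *xrn1*∆ *trf4*∆ to *trf4*∆ against the distance of the Rpn4-binding element before the start codon, in bases, for the 33 subunit genes, with marker shape for the form of the element and colour for the part of the particle. All elements lie 84 to 183 bases before the start codon, and the 4 lowest ratios belong to genes of the base with the consensus form.

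Genes that act around the particle were described from lists of the same pathway. All 10 assembly chaperones were higher in *xrn1*∆ *trf4*∆ on the authors' scale (82% of ORFs), and all 10 lay above the ORF median. Their own median was 1.20, and 6 of 10 were at least 2-fold higher (40.1% of ORFs). These are less abundant transcripts, and relative to ORFs of the same density group their median was 0.22, below the 0.60 of the 20S core. Their median density of 0.659 in *xrn1*∆ *trf4*∆ and 0.272 in *trf4*∆ was well below that of the subunits. *POC4*, a chaperone of the α ring, was highest, with a density of 1.38 in *xrn1*∆ *trf4*∆ and 0.293 in *trf4*∆ and a log2 ratio of 2.24 (1.97 to 2.51). The lowest was *NAS2*, a chaperone of the base, with 0.266 in *xrn1*∆ *trf4*∆ and 0.149 in *trf4*∆ and a log2 ratio of 0.83 (0.50 to 1.18). *UMP1*, which guides maturation of the core, had 5.47 in *xrn1*∆ *trf4*∆ and 2.96 in *trf4*∆, above every subunit gene in each library, and a log2 ratio of 0.89 (0.80 to 0.98).

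The partners and shuttle factors of the particle had a low median, 0.05 over 9 genes, of which 6 were higher on the authors' scale (82% of ORFs), 1 of them at least 2-fold (40.1%), and 3 lay above the ORF median. *DDI1*, a shuttle factor, was highest at 1.22 (1.03 to 1.41), and *DSK2*, another shuttle factor, lowest at -0.44 (-0.50 to -0.37), with a density of 2.27 in *xrn1*∆ *trf4*∆ and 3.07 in *trf4*∆. Of the 4 ubiquitin genes 3 were higher on the authors' scale (82% of ORFs) and 0 lay above the ORF median, with a median of 0.13. These are abundant transcripts, and relative to ORFs of the same density group their median was 0.20. *UBI4*, the stress-induced polyubiquitin gene, was highest with 2.89 in *xrn1*∆ *trf4*∆ and 1.77 in *trf4*∆ and a log2 ratio of 0.71 (0.64 to 0.79), and *RPL40A*, a fusion of ubiquitin with a ribosomal protein, was lowest at -0.20. These values are uncertain, since only uniquely mapped reads were counted. By exact match, 81.8% of the 50-nt sequences of *UBI4* and 93.8% of those of *RPL40A* are unique in the genome. For another gene of the list the share is 93.2%. Near matches, which an alignment with up to 3 mismatches allows, were not counted.

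The 12 genes of ubiquitin transfer and Rpn4p turnover had a median of 0.58 and the widest range, with 9 higher on the authors' scale (82% of ORFs), 4 of them at least 2-fold (40.1%), and 5 above the ORF median. The lowest was *CDC48*, the ATPase that extracts ubiquitin-tagged proteins, with a density of 1.89 in *xrn1*∆ *trf4*∆ and 3.35 in *trf4*∆ and a log2 ratio of -0.82 (-0.87 to -0.78). The highest was *MUB1*, the partner of the ligase that targets Rpn4p, with 1.26 in *xrn1*∆ *trf4*∆ and 0.268 in *trf4*∆ and a log2 ratio of 2.23 (2.09 to 2.37). *UBR2*, that ligase, had 0.160 in *xrn1*∆ *trf4*∆ and 0.141 in *trf4*∆ and a log2 ratio of 0.19 (0.06 to 0.31). The transcripts of the 2 proteins of this complex thus had unlike ratios. The activators of *RPN4* had a median of 1.19, or 0.30 relative to their density groups. On the authors' scale all 4 were higher in *xrn1*∆ *trf4*∆ (82% of ORFs), 3 of them at least 2-fold (40.1%) and above the ORF median. *HSF1* was highest at 1.47 (1.25 to 1.69) and *PDR3* lowest at 0.60 (0.44 to 0.75).

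**Figure D5:**
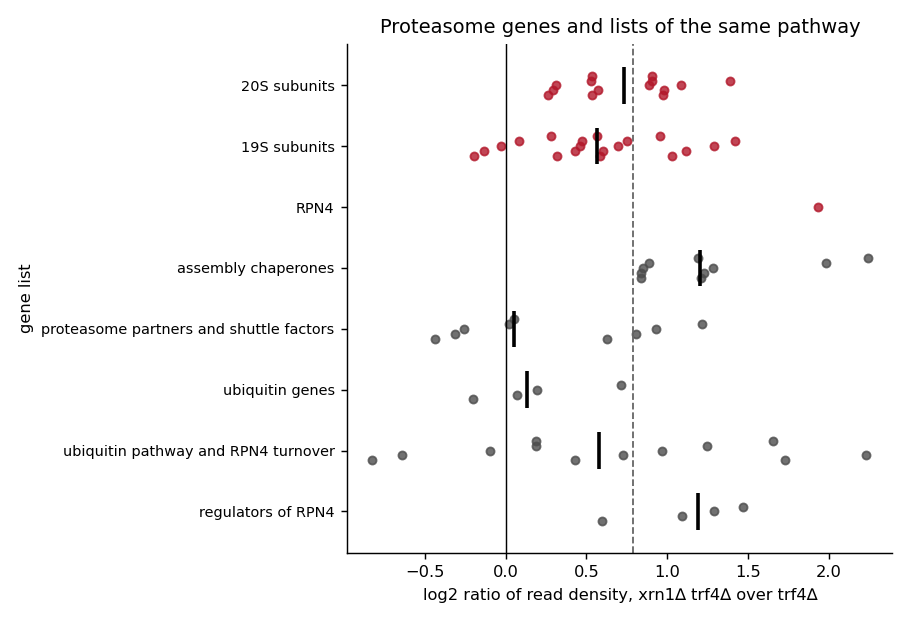
log2 ratio of *xrn1*∆ *trf4*∆ to *trf4*∆ for the proteasome genes (red) and the genes of 5 lists of the same pathway (grey), 1 point per gene, with a black bar at the median of each list, a solid line at 0 and a dashed line at the ORF median of 0.78. All 10 assembly chaperones lie to the right of the dashed line, while the subunits lie on both sides of it.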

How the data were processed

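The authors sequenced rRNA-depleted total RNA on a SOLiD instrument (50 nt), aligned the reads to the S288c genome with Bowtie 0.12.7, allowing up to 3 mismatches, and kept uniquely mapped reads. The deposited values are a coverage signal, reads per nucleotide, normalized by the authors on total ORF reads. The genome release and the use of strand are not given in the sources used here. Both value columns were used, and 0 were left out.

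Density times R64 gene length gave whole reads, within 0.01, for 99.4% of 5770 ORFs and for all 34 genes here, with 1 read worth 1 in *trf4*∆ and 0.626 in *xrn1*∆ *trf4*∆. Log2 ratios carry no pseudocount. Intervals of single genes are 95% Clopper-Pearson intervals of recovered reads. Since PCR copies were not told apart, they cover counting error only. For medians of lists, alternatives were sorted by nominal 95% order-statistic intervals over the genes of the list. Those intervals describe spread among genes, which are not replicates of a strain, and for the lists of 4 genes they are the full range. The functions were tested on simulated data. The members and lists were chosen with earlier results of these data known, and the split into rings, base and lid after their values were seen. All members could be named, and of each other list its highest and lowest gene plus *UMP1*, *UBI4*, *CDC48*, *UBR2* and *MUB1*. Alternatives were 3 scalings, centring by density group, pseudocounts of 0.01 and 0.1, a minimum mean density of 0.05, means and overlap-free genes. Figures were drawn with matplotlib 3.10.9, and values computed with SciPy 1.17.1, pandas 2.3.3 and NumPy 2.4.6 under Python 3.11.15. The wild type and *xrn1*∆ are not analysed here, and no test of the authors was repeated.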

Additional observations from a re-analysis of the deposited data

How the results depend on the processing

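The subunit medians changed sign with the scale between the libraries. Scaling on the median ORF gave a median of -0.37 for the subunits, -0.21 for the 20S and -0.38 for the 19S genes, with 9 of 33 subunits higher, 0 at least 2-fold higher and 2 at least 2-fold lower, and 0.99 for *RPN4*. The trimmed mean gave -0.21, -0.054 and -0.22, with 12 higher and 0 at least 2-fold higher, and 1.15 for *RPN4*. Both are constant shifts, so positions relative to the ORF median do not change. Under these 2 scalings, the medians of the shuttle factors and partners were -0.89 and -0.73, of the ubiquitin genes -0.81 and -0.65, of ubiquitin transfer and turnover -0.37 and -0.21, of the assembly chaperones 0.26 and 0.42 and of the regulators of *RPN4* 0.24 and 0.40. Equal sums of ORF densities gave -0.029 for the partners, and centring by density group -0.28 for the partners, 0.22 for the assembly chaperones, 0.30 for the regulators of *RPN4*, 0.25 for the subunits, 0.029 for the 19S genes and 1.36 for *RPN4*. A pseudocount of 0.1 gave 1.71 for *RPN4* and 0.82 for the assembly chaperones. Of 93 values under alternatives 61 were counted as unmoved, 18 moved and 14 changed sign. A median counted as unmoved within the interval over the genes of its list, which reflects spread among genes and can be wide. The median of ubiquitin transfer and turnover thus counted as unmoved at 0.006 on centring by density group, against 0.58 (interval -0.10 to 1.65). Limits for counts were loose as well, since 21 of 33 subunits higher on that centring, against 30, counted as unmoved. The minimum mean density of 0.05 and the restriction to overlap-free genes removed none of the genes described. The values under these settings, counted among the 61, could therefore only repeat the main ones. Leaving out subunit genes shorter than 600 bases was an alternative chosen after seeing the data. It took the 20S median from 0.73 to 0.89 and the 19S median from 0.56 to 0.47, both within their wide intervals over genes, and the median of all subunits to 0.58. No paired analysis was possible because each strain has 1 library.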
